A study of Mus musculus with 22 samples.

Results

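Lap2alpha sites that were found at both sonication lengths and carried no BRG1 in wildtype mouse dermal fibroblasts are described here. They are the merged regions of the wildtype (WT) Lap2alpha list at 16 sonication cycles that share at least 1 bp with a region of the 20-cycle Lap2alpha list and with none of the WT BRG1 lists. There were 5742 such sites among 67557 merged Lap2alpha regions at 16 cycles, or 8.50%, and they made up 72.4% of the 7936 Lap2alpha regions seen at both lengths. A WT lamin A/C region, from either lamin antibody at either length, lay on 2719 of the sites and on none of the other 3023. The sites were therefore chosen on measured lists: their WT Lap2alpha and WT BRG1 values, and WT lamin A/C within these 2 subgroups, describe the choice and are no findings.

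Lap2alpha is a LAP2 protein without a membrane anchor that binds A-type lamins (lamin A/C) in the interior of the nucleus, away from the lamina that lines the nuclear envelope. A-type lamins touch chromatin in both places, and chromatin at the lamina is mostly gene-poor and silent. BRG1 is the ATPase of SWI/SNF (BAF) remodellers, which slide or evict nucleosomes at active promoters and enhancers, and CHD4 is the ATPase of the NuRD remodelling and deacetylase complex.

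The study mapped these proteins by chromatin immunoprecipitation and sequencing (ChIP-seq) in cultured dermal fibroblasts, which lay down the collagen matrix of skin, of 2 genotypes: WT and Lap2alpha knockout (KO). Lap2alpha was precipitated with antibody 1H11 in WT. Lamin A/C was precipitated with antibodies 3A6 and E1, and BRG1 and CHD4 with 1 antibody each, in both genotypes, from chromatin fixed with DSG and formaldehyde and sonicated for 16 or 20 cycles. Each combination was 1 library, so no difference between genotypes has a replicate check and no test was run. How the knockout was made, and whether the cells of a genotype were 1 clone or came from 1 animal, is not given in the sources used here. Since Lap2alpha was not among the KO region lists, the KO label could not be checked against Lap2alpha itself.

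The 18 lists used held 7283 to 233769 merged regions, the fewest in KO CHD4 at 20 cycles. Of the 10 fibroblast marker genes, 9 had a WT BRG1 region within 1 kb of a gene end at both lengths. The counts were 0 of 6 keratinocyte, 1 of 4 endothelial, 0 of 4 leukocyte and 1 of 4 melanocyte markers. The share of all genes with such a region is not given here, so these counts alone do not show cell identity. Of the 67557 Lap2alpha regions at 16 cycles, 11.7% overlapped a region of the 20-cycle list, and 8.67% of the 20-cycle regions overlapped one at 16 cycles. The lists differed in their chromosome make-up. Chromosomes 3, 8, 19 and X, which hold 19.2% of the genome's span, held 47.7% of the Lap2alpha regions at 16 cycles and 32.5% at 20 cycles. The same chromosomes held 41.3% of WT 3A6 regions at 16 cycles but 13.7% of KO ones, and 56.1% of WT E1 regions at 16 cycles but 29.3% of KO ones. At 20 cycles the figures were 28.6% and 21.0% for 3A6 and 32.7% and 26.0% for E1. Copy number was not measured here, so its part in these shares was not tested.

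The sites were short, with a median of 242 bp and a range from 2 to 1467 bp. A median of 100% of a site was covered by the 20-cycle list, and 5130 sites (89.3%) were covered to at least 50%. Just inside the rule, 88 sites overlapped the 20-cycle list by 20 bp or less, and just outside it 55 BRG1-free regions missed that list by 50 bp or less. On the BRG1 side, 209 sites (3.64%) had a WT BRG1 region within 1 kb and 8 within 100 bp, and 19 of the regions left out had 20 bp or less of BRG1 overlap.

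Few of the sites lay on promoters. Of 21238 promoter windows of 300 bases (250 before to 50 after a gene start, RefSeq, GRCm38.p6), 8 windows of 7 genes touched a site, against 83 windows of 78 genes for the 2194 reproducible Lap2alpha sites with BRG1. All 67557 Lap2alpha regions touched 328 windows of 306 genes. The 46949 BRG1-free regions at 16 cycles alone touched 73 windows of 69 genes, with medians of 45.3% G and C and 2 CpG dinucleotides. They were also chosen without WT BRG1, so the contrast with the sites with BRG1 is tied to the choice. The 8 windows were poor in G and C, with a median of 42.8% and 2.5 CpG dinucleotides, where all promoter windows had medians of 56.3% and 13 and those at sites with BRG1 54.0% and 14. Of these windows, 5 are printed below because they are the site sequence that the RefSeq promoter table holds: the 250 bases before the gene start, 5′ to 3′ on the gene's strand, with the bases inside the Lap2alpha site in capitals.
Agtr2: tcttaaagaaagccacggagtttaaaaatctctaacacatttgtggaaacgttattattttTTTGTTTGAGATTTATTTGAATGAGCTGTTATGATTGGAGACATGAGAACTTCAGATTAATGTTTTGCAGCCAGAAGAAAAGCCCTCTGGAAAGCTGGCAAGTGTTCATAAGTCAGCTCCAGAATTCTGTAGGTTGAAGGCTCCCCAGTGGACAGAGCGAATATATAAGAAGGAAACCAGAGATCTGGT
Akap4: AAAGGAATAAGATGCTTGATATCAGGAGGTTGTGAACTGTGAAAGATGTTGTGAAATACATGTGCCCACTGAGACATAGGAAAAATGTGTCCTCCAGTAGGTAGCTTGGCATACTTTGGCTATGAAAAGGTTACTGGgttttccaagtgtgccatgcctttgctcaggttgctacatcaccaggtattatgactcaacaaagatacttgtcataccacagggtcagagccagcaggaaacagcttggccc
Defb38: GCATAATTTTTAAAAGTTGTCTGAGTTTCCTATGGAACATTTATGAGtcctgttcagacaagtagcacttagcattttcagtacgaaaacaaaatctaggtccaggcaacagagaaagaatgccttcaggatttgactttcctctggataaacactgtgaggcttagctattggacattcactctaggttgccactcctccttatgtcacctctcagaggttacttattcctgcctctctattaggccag
Aadacl4fm1: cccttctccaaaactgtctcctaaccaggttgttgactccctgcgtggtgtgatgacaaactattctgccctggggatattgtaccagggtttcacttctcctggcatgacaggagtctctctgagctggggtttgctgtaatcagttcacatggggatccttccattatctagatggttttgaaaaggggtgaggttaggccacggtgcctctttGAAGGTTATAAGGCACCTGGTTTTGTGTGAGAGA
Cep112: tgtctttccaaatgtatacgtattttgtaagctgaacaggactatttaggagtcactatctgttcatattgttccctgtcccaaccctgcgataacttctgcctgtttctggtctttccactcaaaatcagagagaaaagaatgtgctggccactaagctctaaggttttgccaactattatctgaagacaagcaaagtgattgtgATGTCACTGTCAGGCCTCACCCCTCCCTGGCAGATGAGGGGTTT

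Agtr2 encodes the type 2 angiotensin II receptor, and its window at chrX:21484374-21484623 (plus strand) held 189 bases of a site without lamin A/C in any of the 8 WT and KO lamin libraries. Akap4, a sperm tail anchoring protein for protein kinase A, at chrX:7067960-7068209 (plus strand), held 137 site bases with WT lamin A/C in the 3A6 library at 20 cycles alone and WT CHD4 at 16 cycles. The Defb38 window, before a defensin gene at chr8:19026569-19026818 (minus strand), had WT lamin A/C in both 3A6 libraries and in none of the KO libraries. The Aadacl4fm1 window, at chr4:144519572-144519821 (plus strand), had lamin A/C in WT 3A6 at 16 cycles and in KO 3A6 at 20 cycles. The Cep112 window, before a transcript start of a centrosomal protein gene at chr11:108682368-108682617 (plus strand), had lamin A/C in KO 3A6 at 20 cycles alone. None of these 5 windows had BRG1 in a KO library. The letters TGANTCA, the core that AP-1 factors bind, read alike on both strands and were searched in all windows: 1 of the 8 held them, against 6.99% of all promoter windows. That match was in Akap4, outside the bases of the site.

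Lamin A/C was found at the sites more often than at Lap2alpha regions as a whole, and 3A6 lamin A/C was less frequent there in KO than in WT. In WT, a 3A6 region lay on 25.6% of the sites at 16 cycles and on 34.5% at 20 cycles. In KO the shares were 16.0% and 24.2%. With 16 cycles, E1 regions lay on 6.43% of the sites in WT against 6.58% in KO. With 20 cycles the E1 shares were 12.02% in WT against 14.4% in KO. Over all Lap2alpha regions the WT shares were 15.8% and 20.8% for 3A6 and 4.01% and 7.28% for E1, and the KO shares 14.4%, 17.3%, 5% and 9.62%. BRG1-free Lap2alpha regions seen at 16 cycles alone had 3A6 on 16.8% and 23.2% in WT and on 14.1% and 18.2% in KO. KO minus WT was thus also negative there, at -2.76 and -5.05 points, so a lower KO share is not particular to the sites. The 3A6 antibody thus marked a larger share of the sites than E1 in every library pair, and KO was below WT with 3A6 at both lengths. The E1 difference had no stable sign: KO was above WT at both lengths here, but with equal numbers of the widest regions kept in each pair of lists the differences, KO minus WT, were -2.86 and -1.24 points.

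**Figure D1:**
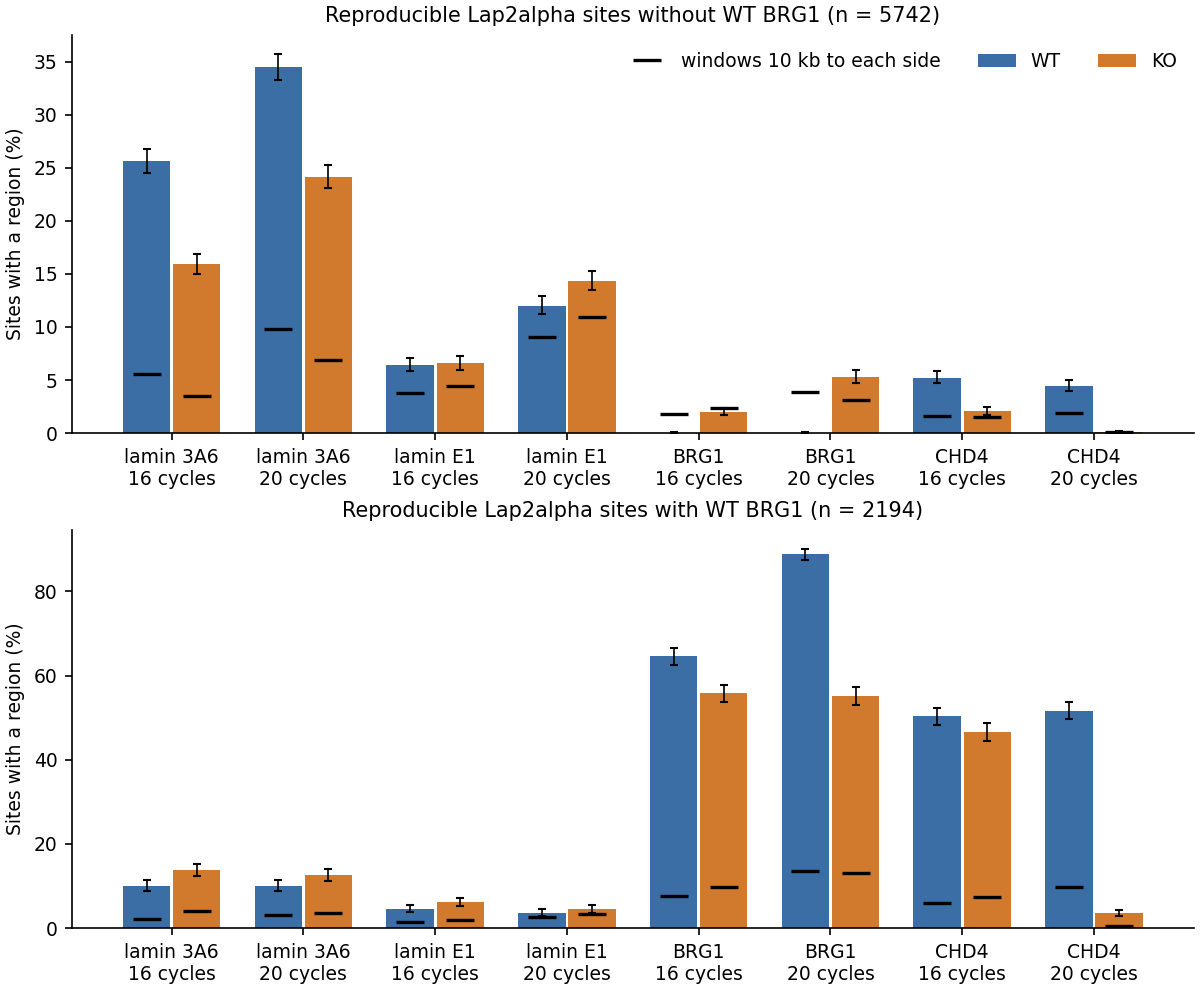
Share of sites with a region of each library (%, bars; error bars are 95% Wilson intervals) in WT and KO, for the 5742 reproducible Lap2alpha sites without WT BRG1 (top) and the 2194 with it (bottom); black dashes are windows of the same width moved 10 kb to each side. At the sites without BRG1 the KO bars of 3A6 stand below the WT bars by about 10 points, WT BRG1 is at 0 by the rule, and the vertical scales of the 2 panels differ.

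Per pair of matched libraries the difference, KO minus WT, was -9.65 and -10.34 percentage points for 3A6 at 16 and 20 cycles and 0.16 and 2.35 points for E1. The mean was -10.00 ± 0.49 points (SD, n = 2 pairs) for 3A6, 1.25 ± 1.55 (SD, n = 2 pairs) for E1 and -4.37 ± 6.56 (SD, n = 4 pairs) over all, so that the overall mean was smaller than the spread between pairs. These SDs are over sonication lengths and antibodies, not over cultures. The 95% Wilson interval of the share of sites with any WT lamin A/C region, 47.4%, ran from 46.1% to 48.6%, and that of any KO lamin A/C region, 43.9%, from 42.6% to 45.2%. Such intervals cover counting error only, and neighbouring sites are not independent.

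The same proportion was seen beside the sites. Windows of the same width moved 10 kb to each side had a 3A6 region in 5.59% (WT) and 3.47% (KO) of cases with 16 cycles of sonication. With 20 cycles they had one in 9.85% (WT) and 6.93% (KO). The KO share was 0.623 of the WT share at the sites and 0.620 in the windows at 16 cycles, and 0.700 and 0.704 at 20 cycles. Over the windows beside them 3A6 at the sites was thus enriched by similar factors in both genotypes, 4.58-fold in WT against 4.60-fold in KO for the shorter sonication and 3.50-fold against 3.48-fold for the longer. E1 stood less above its surroundings, 1.70-fold in WT against 1.49-fold in KO for the shorter sonication and 1.33-fold against 1.31-fold for the longer. Over all Lap2alpha regions the WT factors at 16 and 20 cycles were 4.23-fold and 3.05-fold for 3A6, and 1.73-fold and 1.27-fold for E1. For 3A6 these were somewhat lower than at the sites, and for E1 they were near them.

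**Figure D2:**
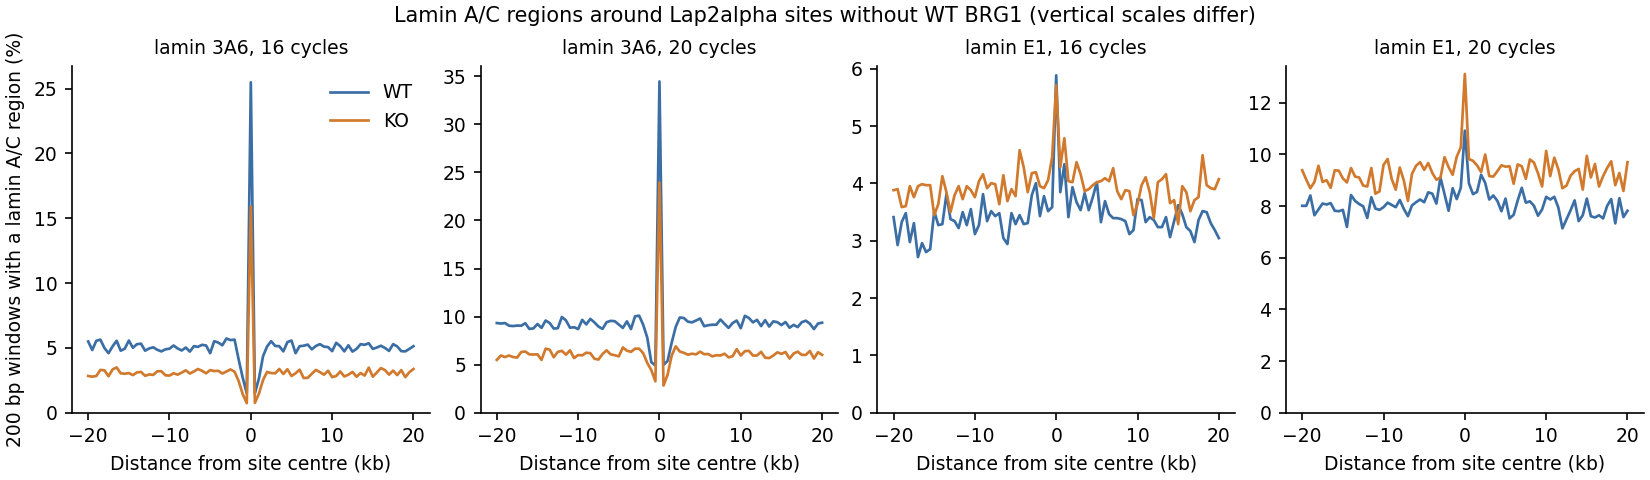
Share of 200 bp windows with a lamin A/C region (%) against distance from the site centre (kb), over the 5742 sites, for the 4 lamin antibody and length pairs in WT and KO. 3A6 has a narrow peak at the centre with low shares just beside it, E1 a low peak on a high surrounding level, and the KO line of 3A6 runs below the WT line also 20 kb away.

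The 3A6 regions formed a narrow peak at the sites. The share of 200 bp windows with a WT 3A6 region at 16 cycles was 25.5% at the centre, 1.5% at 500 bp to either side, and 4.95% and 4.75% at 10 kb to the left and right. E1 showed no such drop beside the site, with 5.89% at the centre and 3.59% and 3.85% at 500 bp at 16 cycles in WT. Where a WT 3A6 region lay on a site it covered a median of 100% of it at either length, while E1 regions covered a median of 54.7% at 16 cycles and 60.2% at 20 cycles.

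The difference in 3A6 varied with location, at the sites and in the windows beside them. On chromosomes 3, 8, 19 and X, with 3604 sites (62.8%), 3A6 shares went from 29.8% in WT to 13.2% in KO with 16 cycles and from 36.1% to 23.3% at 20 cycles. On the other 16 chromosomes with sites, holding 2138 sites, the 16-cycle pair had the opposite sign, 18.5% in WT and 20.5% in KO, while at 20 cycles KO was still lower, 25.6% against 31.8%. Windows 10 kb away changed in the same directions. On chromosomes 3, 8, 19 and X they had 6.63% (WT) and 3.01% (KO) at 16 cycles, and 10.2% and 6.73% at 20 cycles. Elsewhere they had 3.84% and 4.23%, then 9.26% and 7.27%. Chromosomes 3, 8, 19 and X, the densest in sites, were singled out after their values were seen. Weighting each of the 20 chromosomes equally gave a mean difference of 0.02 points at 16 cycles, with 9 chromosomes negative and 10 positive, and of -7.65 points at 20 cycles, with 16 negative and 3 positive. On chromosomes 3, 8, 19 and X the KO 3A6 list at 16 cycles also held a smaller part of its regions than the WT list. Elsewhere the share of sites and the part of the list changed in the same direction on some chromosomes, such as 1 and 17. They changed in opposite directions on others, such as 4, 10, 14, 15 and 18. The part of the lists' chromosome make-up in the difference was not tested.

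Among the 4 dense chromosomes the difference was largest on chromosome 8 at 16 cycles and on chromosome 19 at 20 cycles, where 47.2% of sites had a WT and 24.9% a KO 3A6 region. Of the 776 sites of chromosome 8, 37.6% had a WT and 10.6% a KO 3A6 region with 16 cycles, and 52.8% a WT and 33.6% a KO one with 20 cycles. The same order for E1 gave 10.1%, 10.3%, 20.6% and 21.4%. Chromosome 8 held 12.5% of all WT 3A6 regions at 16 cycles but 2.33% of the KO ones, against 9.68% and 6.23% at 20 cycles. On chromosome 12, with 46 sites, no site had a WT 3A6 region at 16 cycles and 37.0% had a KO one.

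Gene density separated the sites further. Bins of 1 Mb were ranked by their number of protein-coding genes, and the 683 bins with the fewest (2 genes or fewer) and the 683 with the most (11 or more) were called gene-poor and gene-rich. At the 1809 sites in gene-poor bins, 3A6 lay on 35.7% of sites in WT but 15.3% in KO with 16 cycles, and on 50.6% but 28.5% with 20 cycles. At the 871 sites in gene-rich bins these pairs of shares were 16.6% and 17.8%, then 22.0% and 20.7%. The 3A6 shares of windows 10 kb away from the gene-poor sites were 8.79% (WT) and 3.62% (KO), then 14.8% and 8.35%. For the gene-rich sites they were 3.56% and 3.33%, then 6.08% and 5.45%. The gene-poor difference was thus not confined to the sites. At the sites, E1 was lower in KO by 1.33 and 1.22 points in gene-poor bins and higher by 1.95 and 5.17 points in gene-rich bins. Within the other 16 chromosomes the gene-poor difference was -2.30 points at 16 cycles and -17.61 points at 20 cycles for 3A6, so that at 20 cycles it did not rest on the 4 dense chromosomes.

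The sites with BRG1 gave the reverse of the 3A6 difference. Of those 2194 sites, 10.0% had a WT 3A6 region at either length, and 13.8% and 12.6% a KO one. E1 went from 4.56% in WT to 6.11% in KO with 16 cycles and from 3.65% to 4.47% with 20 cycles. All 4 pairs were higher in KO there, by 2.18 ± 1.29 points on average (SD, n = 4 pairs), where at the sites without BRG1 the 3A6 pairs were lower. The KO lists for lamin A/C held more regions than the WT lists, but KO 3A6 at 20 cycles covered less of the genome, 60.4 Mb against 66.5 Mb. Equal numbers of regions are thus not equal cover in that pair. With equal numbers of the widest regions kept in each pair, the 4 differences were -18.27, -14.73, -2.86 and -1.24 points at the sites without BRG1 and -3.97, -0.14, -1.32 and -0.64 points at those with it. The sign at the sites with BRG1 thus turned with equal numbers of regions, while 3A6 was still lower at the sites without BRG1.

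Lamin A/C was compared site by site. A region was present in 0, 1, 2, 3 and all 4 WT lamin libraries at 3023, 1452, 868, 274 and 125 sites. In KO the numbers were 3222, 1743, 598, 149 and 30. The more WT libraries had a region at a site, the more often any KO library had one: 30.1%, 52.1%, 60.5%, 77.7% and 92.8% of the sites in that order. No lamin A/C region was found in any of the 8 libraries at 2113 sites (36.8%), and 10 sites had one in all 8.

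**Figure D3:**
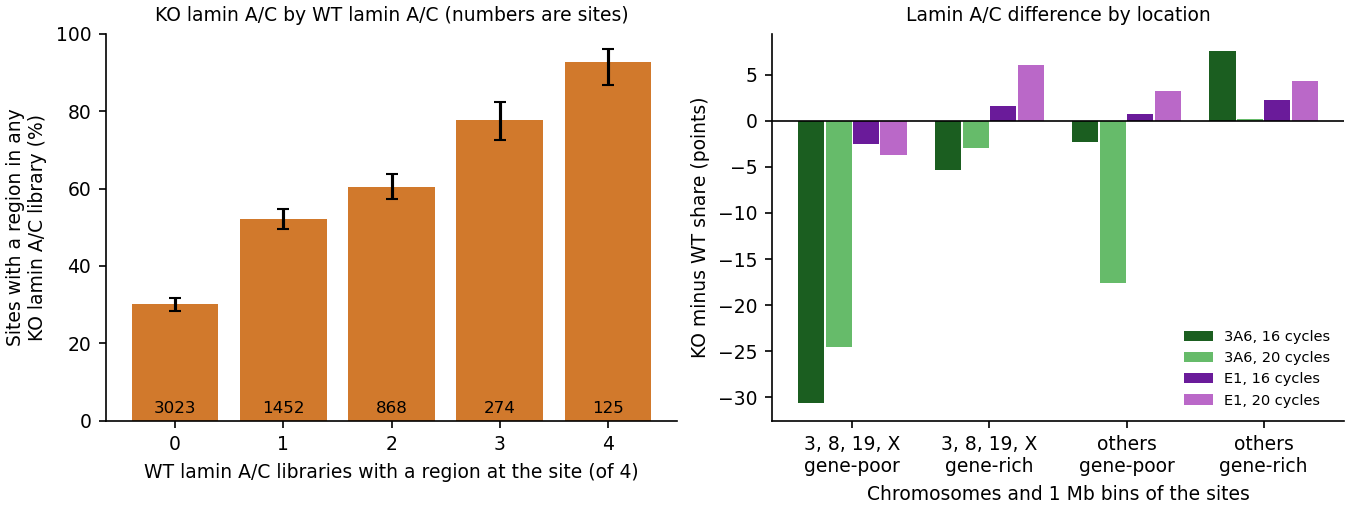
Left, share of sites with a region in any KO lamin A/C library (%) by the number of WT lamin A/C libraries with one, with 95% Wilson intervals and the number of sites in each bar, rising from 30.1% to 92.8%. Right, KO minus WT share (percentage points) of each lamin pair for sites by chromosome group and gene density: the 3A6 bars are lowest for gene-poor bins of chromosomes 3, 8, 19 and X, at -30.62 and -24.57 points.

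Recurrence of lamin A/C at the same sites was compared between genotypes and between sonication lengths of WT. Of 1470 sites with a WT 3A6 region at 16 cycles, 60.6% had one in WT at 20 cycles and 18.4% in KO at 16 cycles, and the latter was close to the 15.1% of sites without the WT region. Of 1981 sites with a WT 3A6 region at 20 cycles, 45.0% had one in WT at 16 cycles and 38.1% one in KO at 20 cycles, the latter against 16.8% of the rest. Of 369 sites with WT E1 at 16 cycles, 60.7% had WT E1 at 20 cycles and 34.7% KO E1 at 16 cycles, against 4.65% of the rest. Of 690 sites with WT E1 at 20 cycles, 32.5% had WT E1 at 16 cycles and 54.3% KO E1 at 20 cycles, the latter against 8.91% of the rest. WT sites thus recurred less often in KO than at the other length of WT in 3 of the 4 libraries, and more often for E1 at 20 cycles. The second lists differ in the number and width of their regions, and lists that cover more of the genome tend to overlap more sites. The KO 3A6 library at 16 cycles stood apart also within KO: 32.1% of its 916 sites had a KO 3A6 region at 20 cycles, where 56.6% of the 378 sites with KO E1 at 16 cycles had KO E1 at 20 cycles.

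The 2719 sites with WT lamin A/C lay in gene-poor bins more often than the 3023 sites without it. Gene-poor bins, 683 of 2732 by construction, held 43.8% of the sites with WT lamin A/C (95% Wilson interval 41.9 to 45.6). They held 20.5% (19.1 to 22.0) of the sites without WT lamin A/C, 15.4% of the sites with BRG1 and 27.0% of all Lap2alpha regions. Gene-rich bins held 9.53% and 20.2% of the 2 subgroups and 27.8% of the sites with BRG1. On autosomes alone the gene-poor shares of the subgroups were 48.0% and 22.3%. Protein-coding gene bodies held 27.7% of the sites with WT lamin A/C and 44.0% of those without, and 37.9% of the genome's span. Gene ends, taken as 1 kb to each side of either end of a gene, held 0.919% and 2.71% of the subgroups, 1.86% of the sites together, and 10.7% of the sites with BRG1. They held 2.91% of the genome's span and 1.80% of the BRG1-free Lap2alpha regions at 16 cycles alone. Those regions were also chosen without WT BRG1, so the low share is not particular to the sites.

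Of the sites with WT lamin A/C, 59.2% had a lamin A/C region in some KO library. The KO shares there were 17.9% and 35.3% for 3A6 and 10.7% and 24.3% for E1 at 16 and 20 cycles, where the WT shares, fixed in part by the choice, were 54.1%, 72.9%, 13.6% and 25.4%. KO 3A6 still stood above the windows 10 kb away, which had 3.29% and 9.43%. At the sites without WT lamin A/C, 30.1% had a region in some KO library, and KO shares were 14.2% at both lengths for 3A6 and 2.88% and 5.39% for E1. The windows 10 kb away had 3.62%, 4.68%, 2.43% and 5.66%, so that KO 3A6 was above its surroundings and KO E1 was near them. A site without a WT region had to be equal or higher in KO, and the subgroup differences are thus set by the choice of members.

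Sites were not spread evenly along the genome. The X chromosome held 1799 of them (31.3%, 10.5 per Mb), against 21.3% of all Lap2alpha regions and 13.4% of the sites with BRG1. Chromosome 19 had 6.15 per Mb (377 sites), chromosome 8 had 6.0 (776) and chromosome 3 4.08 (652), while chromosomes 7 and 13 had 0.25 each (36 and 30 sites) and Y none. WT lamin A/C lay on 65.2% of the sites of chromosome 8, 58.9% of those of 19, 55.7% of those of 3 and 42.2% of those of X. The nearest other site was a median of 48795 bp away, and 14.6% of the sites had one within 10 kb.

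**Figure D4:**
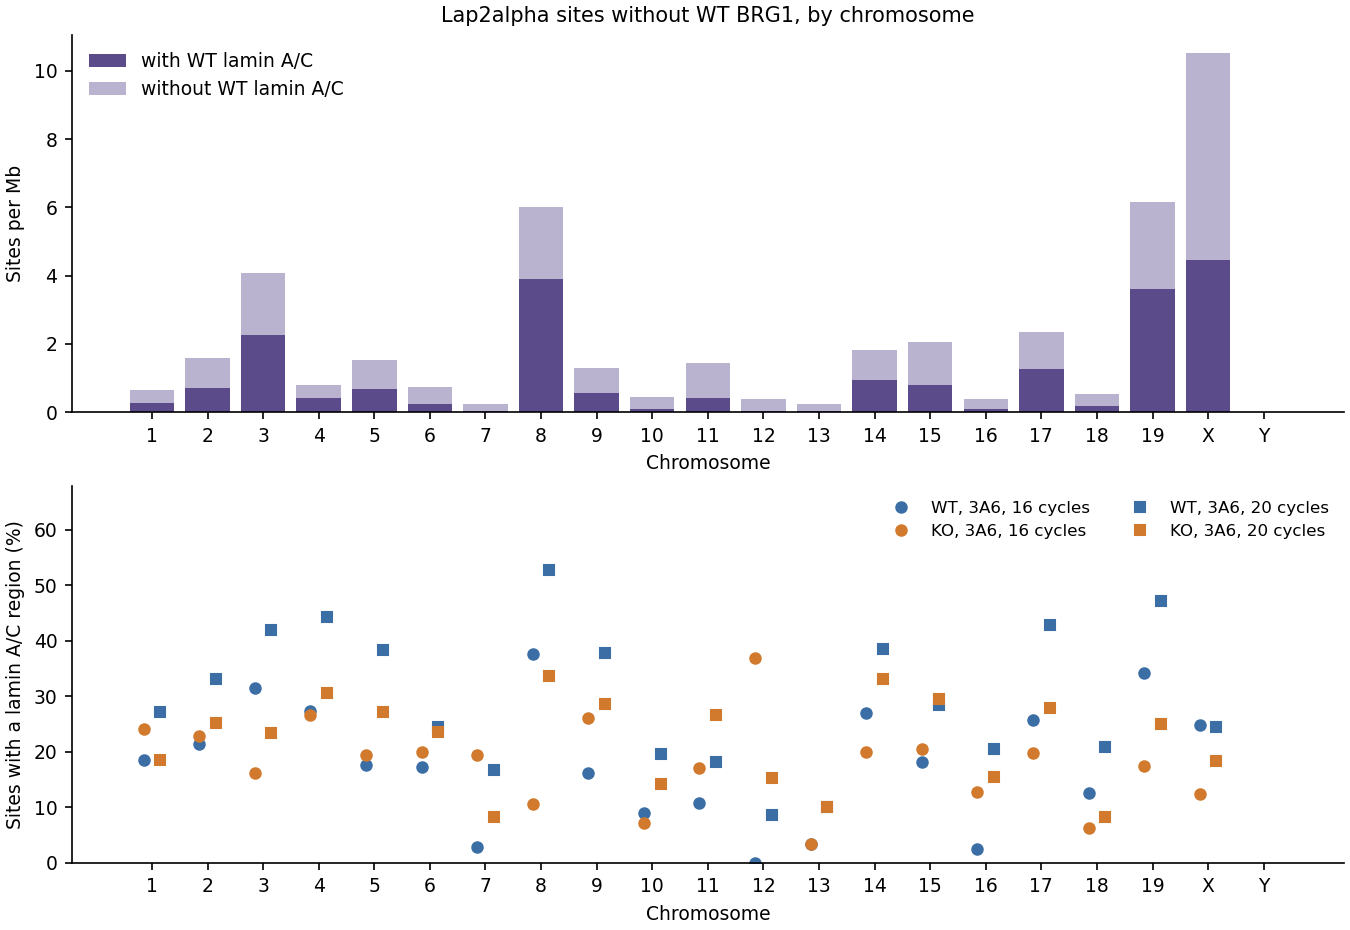
Top, sites per Mb on each chromosome, split by WT lamin A/C. Bottom, share of each chromosome's sites with a 3A6 lamin A/C region (%) in WT and KO at 16 cycles (circles) and 20 cycles (squares). X reaches 10.5 sites per Mb, and on chromosomes 3, 8, 19 and X the KO points lie below the WT points at both lengths. On chromosome 13 the WT points are hidden under the KO points of equal value.

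The densest bins held more than 20 sites. The bin chr3:18000001-19000000, around Bhlhe22 and Cyp7b1, held 24 sites, 21 of them with WT lamin A/C and 11 with lamin A/C in some KO library. The bin chr19:52000001-53000000, around Ins1 and Xpnpep1, held 23 sites, with WT lamin A/C at 20 and KO lamin A/C at 7. The bin chrX:167000001-168000000, with Tmsb4x, Tlr7, Tlr8, Prps2 and Frmpd4, also held 23 sites but WT lamin A/C at 4. Of 2732 bins, 1382 held a site and 190 held 10 or more.

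Very long genes and genes on X held a site more often than other genes. A site lay in the body or within 1 kb of 1134 of 21887 protein-coding genes (5.18%), among them 142 of the 227 genes of 500 kb or more (62.6%), 20.2% of those of 100 to 500 kb and 2.82% of shorter ones. Per length the excess was smaller, with 3.42 sites per Mb in genes of 500 kb or more and 1.58 in those under 100 kb. Of the 966 genes on X 23.8% had a site, and of the autosomal genes 4.32%. Of the 68 genes with 5 or more sites, 25 were on X.

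Dmd, the dystrophin gene of X, held the most sites in both subgroups, 26 with WT lamin A/C and 21 without, or 1.97 sites per 100 kb. WT 3A6 lay on 20 of its 47 sites at 16 cycles and on 12 at 20 cycles, and KO 3A6 on 6 and 12. With 16 cycles, E1 lay on 5 in WT and 2 in KO, and with 20 cycles on none in WT and 5 in KO. Neither CHD4 library of either genotype had a region on any of them. In Il1rapl2, which encodes an interleukin-1 receptor accessory protein-like membrane protein, 24 of 26 sites had WT lamin A/C, and 3A6 lay on 16 sites in WT but 4 in KO with 16 cycles, and on 17 but 14 with 20 cycles.

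Naaladl2 on chromosome 3 had WT lamin A/C at each of its 21 sites. WT 3A6 lay on 16 of them at 16 cycles and 14 at 20 cycles, and KO 3A6 on 3 and 0, while E1 lay on 5 and 5 in WT and on 2 and 3 in KO. Lrmda, a gene tied to melanocyte differentiation, had WT lamin A/C at 19 of 20 sites, with 3A6 at 9 and 17 sites in WT and 3 and 6 in KO. Prkg1, the cGMP-dependent protein kinase of smooth muscle and platelets, had it at 19 of 21, with 3A6 at 11 and 13 in WT and 7 and 7 in KO. Csmd1, a large complement-regulating membrane protein, had it at 19 of 20, with 3A6 at 11 and 11 in WT and 2 and 7 in KO. In each of these 4 genes 3A6 lay on fewer sites in KO than in WT at both lengths. E1 did so at both lengths in Naaladl2, Lrmda and Prkg1. In Csmd1 it did not, with 1 and 4 sites in WT and 2 and 2 in KO. These genes, like Dmd and Il1rapl2, were named for their many sites with WT lamin A/C, so their WT counts are high by the choice. Lower KO counts are therefore no finding about these genes.

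Fhit, a tumour suppressor at a common fragile site, had 14 of 26 sites with WT lamin A/C, and 3A6 lay on 4 and 13 of its sites in WT and on 5 and 13 in KO, so that it was not lower in KO at either length. E1 lay on 3 and 4 in WT and 1 and 7 in KO, and 20 of the 26 sites had lamin A/C in some KO library. Galntl6, Frmpd4 and the synaptic adhesion gene Nlgn1 completed the 10 genes with most lamin sites, with 14 of 16, 12 of 19 and 12 of 13.

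Among sites without WT lamin A/C, genes other than Dmd and Fhit held 9 or fewer. Cep112 had 9, none with a WT lamin region, and KO lamin A/C lay on 5 of them. Tenm1, a teneurin of neuronal wiring, had 9 of 16 and Pola1, the catalytic subunit of DNA polymerase alpha, 8 of 9. Pola1 had no lamin A/C in any KO library, and WT CHD4 at 3 of its sites at 16 cycles. Mageb18 (8 of 9), Frmpd4 (7 of 19), Dach2 (7 of 8), the formin gene Diaph2 (7 of 10) and the growth factor gene Nrg1 (7 of 11) followed. Nrg1 had KO BRG1 at 4 sites at 20 cycles and at none at 16 cycles. Of these genes, Tenm1, Pola1, Mageb18, Frmpd4, Dach2 and Diaph2 are on X.

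A site lay at a gene end in 113 genes (0.516% of all), 25 of them with WT lamin A/C and 88 without. Among those with WT lamin A/C, the end of Zfp979, a zinc finger gene in a cluster on chromosome 4, had lamin A/C in all 8 libraries, and that of Ms4a4a in 3 WT and 4 KO libraries. Cst9, a cystatin, had it in 1 WT and 2 KO libraries and the casein gene Csn1s2a in 2 and 1. Chil3, Defb46, Abca8a, Hsd3b5 and Aadacl4fm1 had it in 1 of each and Gda, guanine deaminase, in 1 WT library. Among those without WT lamin A/C, Tceal6, Serpina7, Dcun1d4, Fga, Rab39b, Anxa1, Dbx2, Adam34l, Psmd10 and Asb11 had lamin A/C in 1 KO library each, which was the most that any gene end without WT lamin A/C reached.

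The 10 sites with lamin A/C in all 8 libraries included 5 in the zinc finger gene cluster at the end of chromosome 4: 2 in Zfp982, 1 each in Zfp978 and Zfp979, and 1 at 40658 bp from Zfp987. The others were in Sp140, a nuclear body gene, in Chil3, a chitinase-like gene of macrophages, near Hnf4g and Pcsk5, and in a locus of predicted genes. Genes of such clusters have near-identical copies, and how reads that fit several copies were placed is not given in the sources used here, so these sites are uncertain. At 9 sites all 4 WT libraries and no KO library had a region: 1 in Lrmda, 1 in Frmpd4, and the others outside genes, nearest to Sirpb1b, Unc5d, Sorcs1, Adra2a, Tmem47, Cpxcr1 and Pcdh19. The reverse, all 4 KO and no WT libraries, held at 6 sites, in Stxbp4 and a vomeronasal receptor gene and nearest to Sulf1, Fgf20, Kcnv1 and Eda2r. Both sets were picked after their values were seen.

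The 6 widest sites with WT lamin A/C lay both outside and inside genes. They were a site of 976 bp more than 1 Mb from D3Ertd751e, one of 880 bp at 206087 bp from the neuronal cadherin gene Cdh8, and sites of 732 bp in Zfp992, 722 bp in Dmd and 712 bp at 159944 bp from Ube2dnl1. The Zfp992 site had lamin A/C in all 4 WT libraries and 2 KO libraries, and the others in 2 or 3 WT and 1 or 2 KO libraries. A sixth, of 708 bp, was nearest to a predicted gene.

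The widest sites without WT lamin A/C lay in the bodies of other kinds of gene. The widest of all was a site of 1467 bp in Srsf5, a splicing factor, followed by 1090 bp in the RNA helicase gene Ddx3x, 1058 bp in Anxa1 (annexin A1), 992 bp in Fos, the immediate-early AP-1 subunit, 906 bp in Thbs1, the matrix protein thrombospondin 1, and 836 bp in the splicing-related gene Rbm39. WT CHD4 lay on all 6, at both lengths in Anxa1, Fos and Rbm39. Lamin A/C lay on the Rbm39 site in KO 3A6 at 16 cycles and on no other of the 6. KO BRG1 lay on the Anxa1 site at both lengths and on the Thbs1 site at 16 cycles. Of the 91 sites of 500 bp or more without WT lamin A/C, 61.5% were in gene bodies and 45.1% had WT CHD4 at either length, against 43.5% and 9.86% of the 2932 narrower ones. With WT lamin A/C, the 75 sites of that width had 25.3% in gene bodies and 13.3% with WT CHD4, against 27.8% and 6.66% of the 2644 narrower ones. Further wide sites without WT lamin A/C, named after their values were seen, were in Tpt1 (798 bp), Hnrnpa2b1 (762 bp), Adamts1 (750 bp), Ifrd1 (748 bp), Hnrnpu (720 bp), Ddx5 (718 bp) and Ptgs2 (648 bp), and in the long noncoding RNA gene Neat1 (675 and 508 bp). Sites of such width also lay in Gpm6a (664 bp, with lamin A/C in 1 KO library) and outside protein-coding genes, nearest to Slc3a2 (728 bp) and Cypt15 (660 bp). The named sites are thus not a full list.

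BRG1 in KO was rare at the sites. A KO BRG1 region lay on 115 sites (2.00%) at 16 cycles and on 304 (5.29%) at 20 cycles, where all Lap2alpha regions had 12.6% and 14.6% and the sites with WT BRG1 had 55.7% and 55.2%. Windows 10 kb away had 2.35% and 3.13%. The 16-cycle share of the sites, with a 95% Wilson interval of 1.67 to 2.40, was near that of the windows, and the 20-cycle share was above it. The rule removed WT BRG1 from the sites but not from the windows, which had 1.78% and 3.91% in WT, so the 2 are not alike. Either library marked 378 sites (6.58%, 95% Wilson interval 5.97 to 7.25) and both marked 41 (0.714%). Since the rule set WT BRG1 to 0, any KO region counts as a gain here, and this gives no difference between genotypes. BRG1-free Lap2alpha regions seen at 16 cycles alone, also chosen without WT BRG1, had 6.70% in either KO library. KO BRG1 lay on 1.10% and 3.35% of the sites with WT lamin A/C and on 2.81% and 7.05% of those without. Gene ends with it in both KO libraries included those of Dusp1, an immediate-early MAP kinase phosphatase (site of 716 bp), and Srsf3, a splicing factor (226 bp). Neither of these sites had lamin A/C in any library.

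CHD4 was uncommon at the sites in WT and rarer in KO. With 16 cycles, CHD4 lay on 5.22% of the sites in WT but 2.07% in KO. With 20 cycles it lay on 4.46% in WT but 0.0871%, or 5 sites, in KO. Over all Lap2alpha regions, those with BRG1 included, the WT shares were 11.8% and 11.4% and the KO shares 10.2% and 0.554%. The sites with BRG1 had 50.3% and 51.7% in WT and 46.5% and 3.56% in KO. BRG1-free Lap2alpha regions seen at 16 cycles alone, also chosen without WT BRG1, had 3.39% and 3.06% in WT. Their KO shares were 2.16% and 0.113%. Beside these regions CHD4 was thus more frequent at the sites in WT, and similar in KO. The KO CHD4 list at 20 cycles was the shortest of all, which bears on every KO value at that length. The differences were -3.15 and -4.37 points, with a mean of -3.76 ± 0.86 (SD, n = 2 pairs). Windows 10 kb away had 1.58% (WT) and 1.53% (KO) with 16 cycles, so that the sites stood 3.30-fold above them in WT and 1.35-fold in KO.

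CHD4 recurred at few of the same sites, also between libraries of WT, but more often than it lay on the rest. Of 300 sites with WT CHD4 at 16 cycles, 14.7% had KO CHD4 at 16 cycles, against 1.38% of the rest. WT CHD4 at 20 cycles lay on 13.3% of the 300, or 40 sites, against 3.97% of the rest. Of all Lap2alpha regions with WT CHD4 at 16 cycles, those with BRG1 included, 58.8% had KO CHD4 at 16 cycles and 58.4% WT CHD4 at 20 cycles. On the 16 less dense chromosomes the 16-cycle shares of 3.84% (WT) and 2.57% (KO) gave -1.26 points, against -4.27 points on chromosomes 3, 8, 19 and X. At 16 cycles CHD4 went from 3.68% in WT to 1.10% in KO on sites with WT lamin A/C, and from 6.62% to 2.94% on sites without.

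Of the gene lists looked up, genes of the long neuronal type and cadherins held sites most often, and these sites mostly had WT lamin A/C. Of 30 long neuronal genes, 18 held 73 sites, 49 with WT lamin A/C and 34 with lamin A/C in some KO library, a share of genes close to the 62.6% of all genes of 500 kb or more. Counted gene by gene, 404 of the 659 sites of all genes of 500 kb or more had WT lamin A/C. Frequent WT lamin A/C is thus not particular to the neuronal genes. Csmd1 had 20 sites and Nrg1, gene ends included, 12, with WT lamin A/C at 19 and 4. Sgcz (zeta-sarcoglycan) held 6. Of 19 classical and type II cadherin genes, 7 held 19 sites, 18 with WT lamin A/C and 10 with KO lamin A/C: Cdh8 6, Cdh13 4, Cdh11 3 and Cdh12 3. These cadherins, of a median length of 153 kb, held a site in 36.8% of genes. Beside this stand 20.2% of all genes of 100 to 500 kb and 62.6% of longer ones. Cdh8, Cdh13 and Cdh11 are on chromosome 8, where 65.2% of all sites had WT lamin A/C. The 3 sites of Cdh11, the cadherin of mesenchymal cells, had WT lamin A/C and none in KO. Of 397 zinc finger genes named Zfp, 21 (5.29%, near the share of all genes) held 39 sites, 26 with WT and 27 with KO lamin A/C, with 4 sites each in Zfp385b, Zfp978, Zfp981 and Zfp993. The last 2 overlap, so their sites are shared.

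The few sites in fibroblast genes had no WT lamin A/C, and most sites in genes of any kind had none. Counted gene by gene, 1377 of 2157 sites of all genes were without it, and 540 of 676 in genes under 100 kb. The lack of WT lamin A/C is thus not particular to fibroblast genes. Shares of genes with a site were 13.3% for matrix, 10% for identity and 10% for contractile and YAP target genes, beside 5.18% of all genes. Of 30 matrix genes, 4 held 8 sites, all without WT lamin A/C and 1 with KO lamin A/C: Fn1 (fibronectin) 3, Thbs1 3, Col12a1 1 and Col5a2 1. Of 20 fibroblast identity genes, Tcf4 and the intermediate filament gene Vim held 1 each, and of 20 contractile and YAP target genes Tpm1 (tropomyosin) and Wwtr1 (TAZ) held 1 each, none with lamin A/C in any library. None of 29 TGF-beta and BMP pathway genes held a site. With BRG1, the matrix, identity, contractile and TGF-beta lists had sites in 8, 3, 6 and 1 genes. These were 26.7%, 15%, 30% and 3.45% of the lists, beside 3.71% of all genes.

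Genes of the proteins under study and of their complexes held few sites, with shares of 4.17% of lamina, 8% of SWI/SNF and 6.67% of NuRD genes beside the 5.18% of all genes. Of 24 nuclear envelope and lamina genes only Syne1 (nesprin-1) held a site, of 25 SWI/SNF genes Arid2 and Smarca2 (BRM), the latter with WT lamin A/C, and of 15 NuRD genes Rbbp7. Pcna and Rbl2 of 33 cell cycle genes, and Pgk1 and Ywhaz of 25 housekeeping genes, held 1 site each without WT lamin A/C. Of 63 replication-dependent histone genes H2ac7 and H2bc7 shared 1 site, where 41 of the 63 (65.1%, beside 3.71% of all genes) had a Lap2alpha site with BRG1. The lists of other cell types gave no site in 18 keratinocyte, 11 endothelial or 16 leukocyte genes, and 1, in Mitf, in 18 muscle, adipocyte and melanocyte genes. None of 39 HOX genes held a site, nor did more than 7 of 1110 olfactory receptor genes and 3 of 353 vomeronasal receptor genes. Without a test of these counts, no list is called particular to the sites.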

How the data were processed

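ChIP-seq region lists of WT and Lap2alpha KO mouse dermal fibroblasts were used, 18 of 22 samples; the 4 input samples were not analysed here. The authors deposited intervals in 3 columns, chromosome, start and end in base pairs, with no score, height or depth, so no threshold on strength could be set and precision is limited by unknown depth. The build was GRCm38 per the submitters' processing notes. These notes name HOMER 4.11.1, MACS2 2.1.4, bedtools, deepTools and SAMtools, with no roles. The threshold for calling, the control and any pooling: not given in the sources used here.

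Overlapping intervals (7 lists) were merged, and width-0 intervals (1 to 1201 a list) and 6 mitochondrial ones left out, with Python 3.11.15 and numpy 2.4.6. A list that covers more of the genome tends to overlap more sites. Samples were grouped by title, and overlap meant at least 1 bp. Background was the same share over all merged Lap2alpha regions at 16 cycles, and over windows of the site's width moved 10 kb to each side. With 1 library a group, differences are per matched pair with no test. Intervals are 95% Wilson intervals. Genes were 21887 RefSeq protein-coding genes. Interval functions were tested on simulated data.

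The sites, gene lists and tests were chosen with earlier results of these data known. Named were the 10 genes with most sites of each subgroup, up to 10 gene ends of each subgroup ranked by KO lamin A/C libraries and then width, the 6 widest sites of each, gene ends with BRG1 in both KO libraries, and up to 4 members of each gene list; predicted, olfactory and vomeronasal genes were counted, and some genes that the rule names are not reported here. Alternatives covered the choice of sites, overlap, antibodies, list length, chromosomes, gene-end and bin sizes.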

Additional observations from a re-analysis of the deposited data

Results flagged for a closer look

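The 2 lamin A/C antibodies differed in direction at the sites without BRG1 with the lists as deposited: KO minus WT was -10.00 points on average over the 3A6 pairs, negative in both, and 1.25 points over the E1 pairs, positive in both. The difference between the antibodies was not tested, with 2 pairs of each. With equal numbers of the widest regions the E1 pairs were also negative, at -2.86 and -1.24 points, and the E1 pair at 16 cycles, 0.16 points, was at -0.17 over 200 bp at the site centre, -0.087 with 50% of the site covered and -1.41 at sites of 300 bp or more. Without chromosomes 3, 8, 19 and X the 3A6 pair at 16 cycles was at 2.01 points and no longer negative, while the pair at 20 cycles was at -6.17 points.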

How the results depend on the processing

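Of the alternative settings, those that choose the sites from the 20-cycle list, use the intervals as listed, require 50% cover by the 20-cycle list or leave out sites within 1 kb of WT BRG1 moved none of the 7 summary values beyond their spread. Sites of 300 bp or more numbered 1636, with WT lamin A/C at 50.4%, KO BRG1 at 7.27%, a CHD4 difference of -5.75 points and 30.1% in gene-poor bins. WT lamin A/C lay on 44.6% of the sites by 3A6 alone, 14.5% by E1 alone and 56.2% with lamin regions widened by 1 kb. The mean lamin A/C difference of -4.37 points was 1.25 with E1 pairs only and 0.57 without chromosomes 3, 8, 19 and X, both of the opposite sign, and -0.65 with each chromosome weighted equally. Its other alternatives ran from -10.00 (3A6 pairs only) and -9.27 (equal numbers of the widest regions) to -2.61 (without the 3A6 pair at 16 cycles). KO BRG1 was at 5.47% with 50% of the site covered, the CHD4 difference at -2.38 points with equal numbers of the widest regions, and gene ends taken as 5 kb to each side held 7.11% of the sites. On autosomes only, WT lamin A/C was at 49.7%, KO BRG1 at 7.96% and gene-poor bins at 35.1%. Without chromosomes 3, 8, 19 and X, WT lamin A/C was at 40.6%, KO BRG1 at 8.47% and gene ends at 2.34%. The cause of these shifts was not tested. The chromosome settings other than the lamin A/C difference on autosomes, the single antibodies for that difference and the 16-cycle CHD4 pair were chosen after seeing the data. No paired analysis was possible because each group is 1 library and its replicate number is only a name. The lists give no depth, so shares near 0, such as KO CHD4 at 20 cycles, cannot be told apart from a list that is short for other reasons.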
